A study of Mus musculus with 46 samples.

Results

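The hepatic growth hormone axis was followed through 8 genes: the receptor Ghr, the feedback genes Socs2 and Cish, the genes of the circulating IGF output Igf1 and Igfals, and the STAT5-dependent hepatic enzymes Hsd3b5, Elovl3 and Cyp4a12a. They were chosen by name for these roles, with earlier results of these data known. Each was read from the probe set that names only that gene and has the highest mean over all arrays. The 8 genes are 8 of 18193 genes with such a probe set, and all 8 were among the 13239 genes that passed the filter on low values.

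Livers came from male C57BL/6N mice aged 8 to 10 weeks that had received 1 intraperitoneal dose of 1.6 g/kg carbon tetrachloride (CCl4) in olive oil. Mice were on a standard diet, and livers were taken 2 h, 8 h, 1 d, 2 d, 4 d, 6 d, 8 d or 16 d later, with 6 arrays for the last time and 5 for each other. The control group had 5 arrays from untreated mice, and a difference from control therefore includes any effect of injection and vehicle. Each liver RNA was hybridised to an Affymetrix mouse expression array, and values are log2 expression after robust multi-array averaging (RMA). Separate animals are not named for the numbered arrays, so a p value reflects only how far these arrays spread, possibly for technical reasons. No source used here states the hour of day of collection.

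Growth hormone binds its receptor on the hepatocyte surface and activates the kinase JAK2, which phosphorylates the transcription factor STAT5. STAT5 enters the nucleus, binds GAS elements and induces Igf1 and Igfals, whose products form the circulating IGF complex, and Socs2 and Cish, which dampen the receptor's signal. In male mice the pulses of pituitary growth hormone also maintain a male pattern of hepatic enzymes, and Hsd3b5, Elovl3 and Cyp4a12a belong to it. CCl4 is turned into a toxic radical by Cyp2e1 in the hepatocytes around the central vein, which die and are then replaced.

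The stretches of promoter that match the core GAS motif TTCNNNGAA are shown because STAT5 binds such elements and the members differ in holding one near their start. The motif reads the same on both strands. Promoter entries (250 bases before to 50 after a start, RefSeq, GRCm38.p6) existed for 5 of the 8 genes, Ghr, Cish, Igf1, Igfals and Hsd3b5, and 2 of these 5 held a match. In all, 8.3% of the 32851 promoters of this length held at least 1 match, or 9.55% of the 27025 genes with an entry. Capitals mark the motif in each run of 30 bases. In Cish (chr9:107296654-107296683, plus strand) 2 matches lie within bases 1 to 20 after the start. In Igfals 1 match begins 236 bases before the first start (chr17:24877598-24877627, plus strand) and 1 begins 58 bases before the second (chr17:24878163-24878192, plus strand). A match is a description of the letters and not a site. Socs2, Elovl3 and Cyp4a12a had no entry in the table used.
Cish: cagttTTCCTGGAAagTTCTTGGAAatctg
Igfals, first start: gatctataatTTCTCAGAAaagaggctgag
Igfals, second start: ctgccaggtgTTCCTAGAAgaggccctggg

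The liver label was borne out by its markers: the summed linear level of 13 pan-hepatocyte genes was 181972 to 197900 in the controls and 172460 to 197902 at 1 d. Arrays within a group correlated between 0.947 and 0.993 over the 13239 genes tested. The lowest mean correlation with their own group was that of 1 d arrays 1 and 2 (0.95 and 0.962), so results at 1 d are also given without both. The Gapdh 3′ minus 5′ difference, a measure of RNA integrity, was 0.35 ± 0.06 in the controls (mean ± SD, n = 5) and between 0.14 and 0.20 on average from 2 h to 4 d.

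The receptor, both IGF genes and the 3 enzymes were each called lower than control at 2 or more times between 2 h and 4 d, while neither feedback gene was called lower at any time. The count of members called in limma's fit (Benjamini-Hochberg adjusted p under 0.05 over all genes tested) was 1 higher and 2 lower at 2 h, beside 6.41% and 19.9% of all genes (26.3% either way). At 8 h, 5 of 8 members were lower and none higher, beside 24.2% and 17.7% of all genes (41.9% either way). At 1 d, 6 of 8 members were lower, beside 25.1% of all genes, and no member was higher, beside 25% of all genes (50% either way). At 2 d, 5 of 8 members were lower and none higher, beside 18.9% and 21.1% of all genes (40.1% either way). At 4 d, 2 of 8 members were lower and none higher, beside 2.21% and 4.74% of all genes (6.95% either way). No member was called at 6 d, 8 d or 16 d, where 0.0227%, 0.144% and 1.51% of all genes were called. All 8 passed the F-test over the 8 times, as did 83.4% of all genes; Socs2 no longer passed without 6 d array 3, 4 or 5. The members' median log2 fold change ran from -0.22 at 2 h through -0.82, -1.51, -0.74 and -0.50 at the next 4 times to 0.24 at 6 d, and that of all genes tested stayed between -0.04 and 0.00. The 8 comparisons share the same control arrays. In whole liver, fewer cells of a type and less RNA per cell cannot be told apart.

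**Figure D1:**
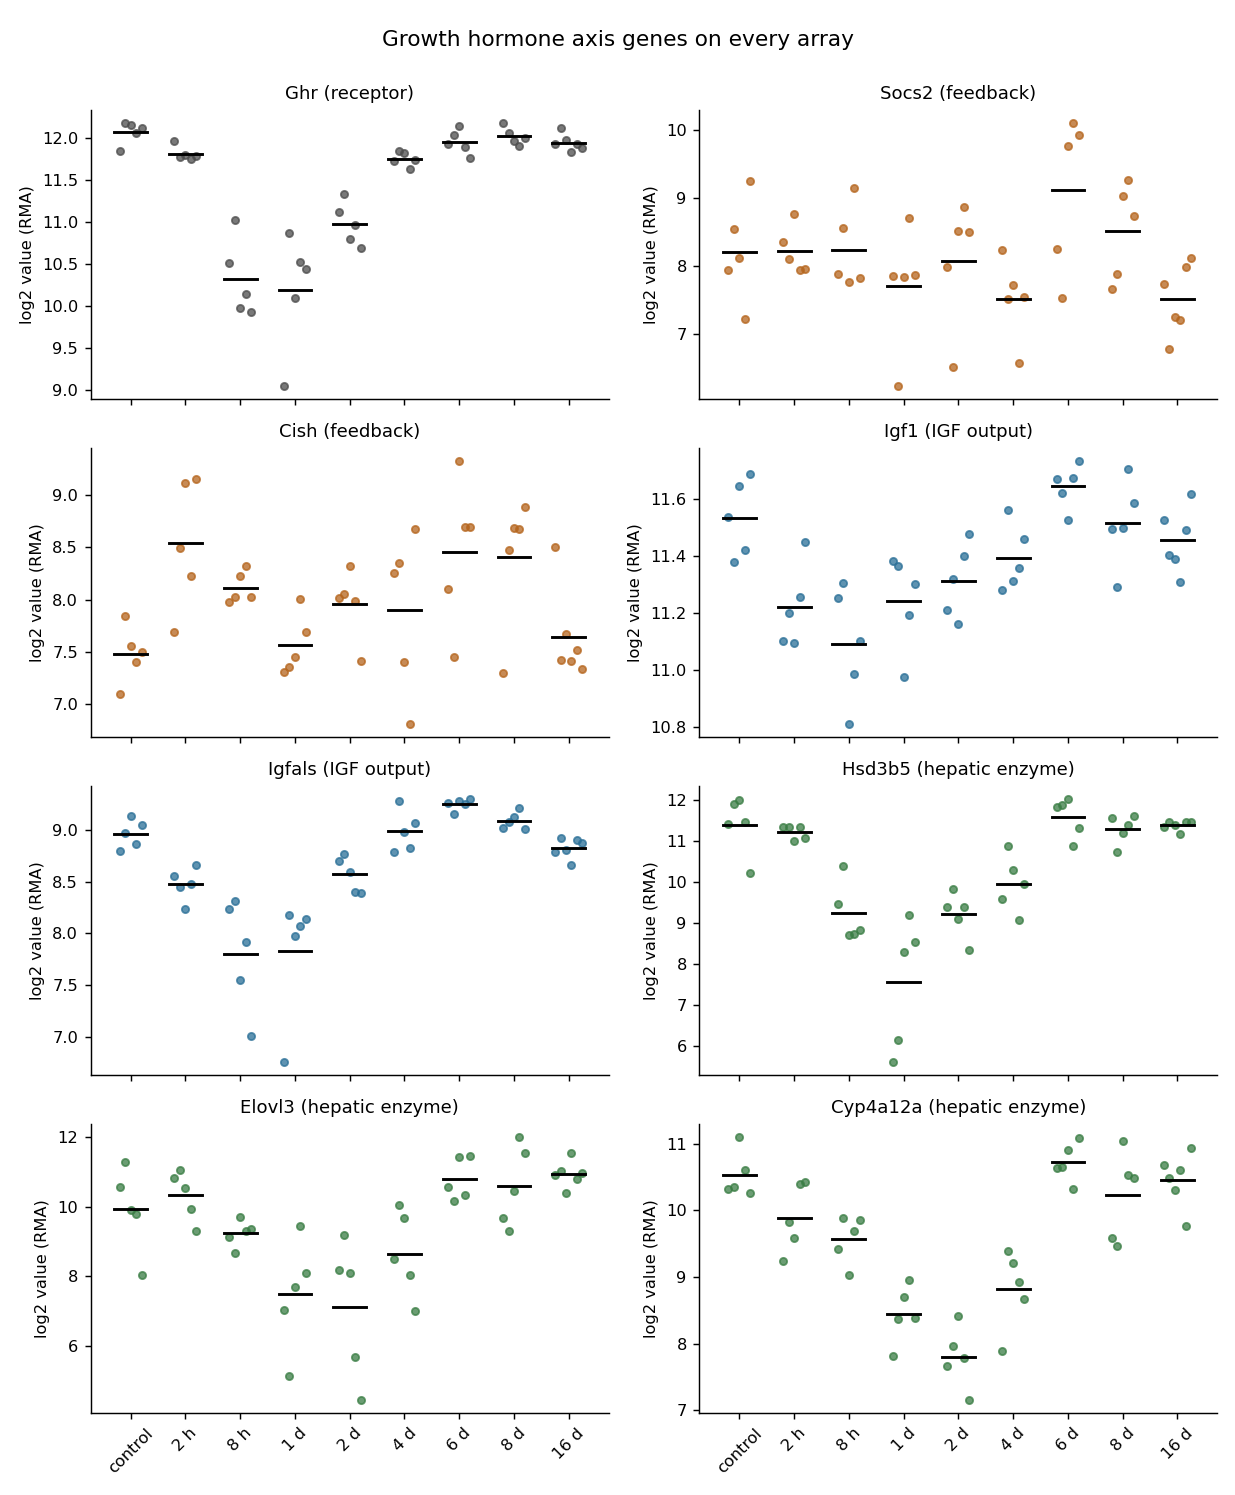
Log2 RMA value (vertical axis) of each of the 8 genes on every array, by group from control to 16 d (horizontal axis); points are arrays and bars are group means. Ghr, Igfals, Hsd3b5 and Cyp4a12a sit low between 8 h and 2 d and are back among the control arrays at 8 d or 16 d, whereas the Socs2 and Cish arrays scatter widely within most groups.

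Ghr encodes the receptor itself and was 3.37-fold lower at 8 h and 3.66-fold lower at 1 d. The 5 control arrays read 11.84, 12.18, 12.16, 12.06 and 12.12 on the log2 scale. The 8 h arrays read 10.52, 11.03, 9.99, 10.14 and 9.94, and the 1 d arrays 9.06, 10.87, 10.10, 10.53 and 10.44. At 2 d they read 11.12, 11.33, 10.80, 10.96 and 10.69. All arrays of these 3 times lay below all controls, as in 19%, 15% and 10.7% of all genes, and 1 of the 1 d arrays stood far below the other 4. The log2 fold change against control was -1.75 ± 0.18 at 8 h (SE, n = 5 in each group, adjusted p = 1.68e-10). It was -1.87 ± 0.18 at 1 d (adjusted p = 2.21e-11) and -1.09 ± 0.18 at 2 d (adjusted p = 5.82e-06). Without 1 d arrays 1 and 2 the value at 1 d was -1.72.

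The receptor's transcript was near its control level before and after this window. At 2 h the arrays read 11.97, 11.78, 11.80, 11.75 and 11.79, of which 4 lay below all controls. The 2 h change of -0.26 did not pass (adjusted p = 0.312), nor did that of -0.32 at 4 d (adjusted p = 0.357), where 4 of 5 arrays again lay below all controls. At 16 d the 6 arrays ran from 11.83 through a median of 11.93 to 12.12, overlapping the controls. The direct steps placed the fall between 2 h and 8 h (-1.49, adjusted p = 1.26e-08) and the return between 1 d and 2 d (0.78, adjusted p = 0.000703) and 2 d and 4 d (0.77, adjusted p = 0.00107). The arrays of 1 d and 2 d overlapped, and in a fit of only these groups the rise between them was not called. From the lowest mean up, the order was 1 d, 8 h, 2 d, 4 d, 2 h, 16 d, 6 d, 8 d and control, and only the gaps on either side of 2 d exceeded the within-group SD of 0.30.

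The 3 probe sets naming Ghr did not report the same size. The probe set used, 1417962_s_at, changed by -1.75 at 8 h and -1.87 at 1 d, 1451501_a_at by -0.76 and -1.43, and 1451871_a_at by -0.92 and -1.01. All 3 were called lower at 8 h, 1 d and 2 d. On 1451501_a_at the return from 1 d to 2 d was not called (0.14, adjusted p = 0.353), and the fall from 8 h to 1 d was (-0.67, adjusted p = 2.27e-06). The suffixes mark probe sets that read several transcripts of 1 gene (a) or share probes with other sequences (s), so the transcript forms behind each are not separated.

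**Figure D2:**
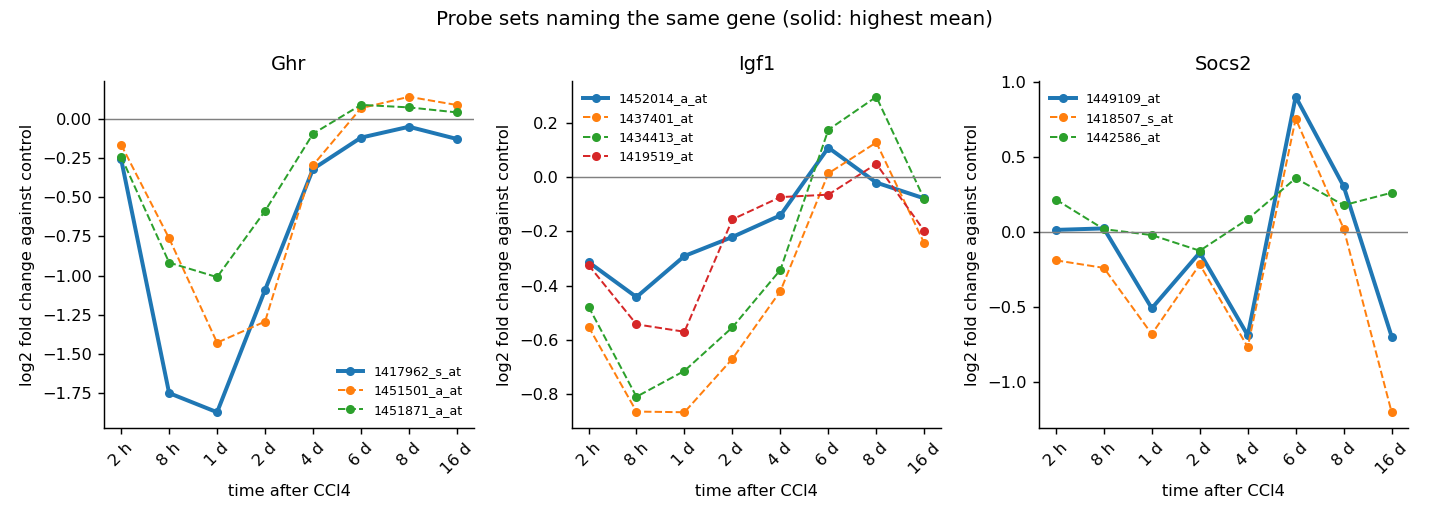
Log2 fold change against control (vertical axis) at the 8 times (horizontal axis) for the probe sets of Ghr, Igf1 and Socs2 that passed the filter, 1 line per probe set, the solid line being the one used. All Ghr and Igf1 lines lie below 0 from 2 h to 4 d, and the used Igf1 probe set shows the smallest fall at 1 d (-0.29 against -0.57 to -0.87).

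Socs2 encodes a suppressor of cytokine signalling that binds the activated receptor and targets it for degradation. It was called different from control at none of the 8 times. The controls read 7.94, 8.55, 8.11, 7.22 and 9.25, a span of 2.03 log2 units within untreated livers. At 4 d the arrays read 8.23, 7.52, 7.73, 6.59 and 7.55, and at 6 d 8.25, 7.54, 9.76, 10.10 and 9.93. The 6 d arrays fell apart: 3 lay above every control and the other two lay among them. The change against control was 0.90 ± 0.45 at 6 d (adjusted p = 0.727; 95% interval -0.01 to 1.81), -0.69 at 4 d (adjusted p = 0.435) and -0.70 at 16 d (adjusted p = 0.383). At 8 h, where Ghr was 3.37-fold lower, the Socs2 change was 0.02, with an interval from -0.88 to 0.93.

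One step of Socs2 was called, the rise of 1.59 ± 0.45 from 4 d to 6 d (adjusted p = 0.0147). It rested on single arrays: without 4 d array 4, or 6 d array 3, 4 or 5, the adjusted p was 0.0548, 0.0513, 0.0603 and 0.0607. In this step the groups overlapped, since the 2 lower arrays at 6 d lay within the range of those at 4 d or just above it. The within-group SD of 0.75 was larger than that of 99.7% of genes tested, against a median of 0.153 for all. No neighbouring levels in the order of the 9 group means differed by more than that SD. Of 6 probe sets naming Socs2, 3 passed the filter; 1418507_s_at followed the one used (0.76 at 6 d and -1.20 at 16 d), while 1442586_at moved by at most 0.36. With the mean of the probe sets the step from 4 d to 6 d was 0.72 (adjusted p = 0.0105).

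Cish, the other STAT5-induced feedback gene of the same family, was 2.08-fold higher than control at 2 h. The controls read 7.10, 7.85, 7.56, 7.40 and 7.50, and the 2 h arrays 7.69, 8.5, 9.12, 8.22 and 9.16, so 4 of 5 lay above every control and 1 overlapped; in 4.34% of all genes all 5 lay above. The log2 fold change was 1.06 ± 0.31 (adjusted p = 0.0087). It kept its call without any single array (0.90 to 1.27), but with the Gapdh 3′ minus 5′ difference as a covariate it was 0.83 (adjusted p = 0.117). That difference was 0.14 ± 0.13 at 2 h and 0.35 ± 0.06 in control, and its part in the result was not tested further.

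At 8 h the Cish arrays read 7.97, 8.02, 8.23, 8.32 and 8.02, all above the controls, as were those of 13.9% of all genes. The change of 0.63 did not pass over all groups (adjusted p = 0.0952), and passed in a fit of these 2 groups alone (adjusted p = 0.00069). At 1 d, when Ghr and the enzymes were lowest or nearly so, Cish was at 0.08 (adjusted p = 0.84). At 6 d and 8 d it was at 0.98 (adjusted p = 0.399) and 0.92 (adjusted p = 0.232), with 4 of 5 arrays above every control at either time. The unadjusted p values there were 0.00272 and 0.00432. At 16 d the 6 arrays ran from 7.34 through a median of 7.47 to 8.5 and overlapped the controls. No step between neighbouring times was called, and no neighbouring means in their order differed by more than the within-group SD of 0.51.

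Igf1 encodes insulin-like growth factor 1, most of which circulates from the liver. It was lower from 2 h to 2 d, by at most 1.36-fold. The controls read 11.53, 11.38, 11.64, 11.42 and 11.69 and the 8 h arrays 11.25, 11.30, 10.81, 10.98 and 11.10, with no overlap, as in 19% of all genes on that side. At 2 h and 1 d 4 of 5 arrays lay below every control. The log2 fold change was -0.31 ± 0.09 at 2 h (adjusted p = 0.00773), -0.44 ± 0.09 at 8 h (adjusted p = 6.99e-05), -0.29 ± 0.09 at 1 d (adjusted p = 0.00633) and -0.22 ± 0.09 at 2 d (adjusted p = 0.0454).

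The call of Igf1 at 2 h was lost with quantile normalization (-0.25, adjusted p = 0.0545) and cyclic loess (-0.11, adjusted p = 0.449). The call at 2 d was lost without control array 1, 3 or 5 or 2 d array 1, 2 or 3 (adjusted p between 0.0607 and 0.123). The other 3 probe sets of Igf1 had larger negative changes: -0.87, -0.81 and -0.54 at 8 h and -0.87, -0.72 and -0.57 at 1 d. From 4 d on Igf1 was not called (-0.14 at 4 d, adjusted p = 0.424; 0.11 at 6 d, adjusted p = 0.899). The 16 d arrays ran from 11.31 through 11.45 to 11.62. Igf1 had the steadiest level of the 8 genes within groups (SD 0.14, larger than in 38.0% of genes tested), and no neighbouring means in the order of its levels differed by more than that.

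Igfals encodes the acid-labile subunit, which keeps IGF in a long-lived ternary complex in plasma. It was 2.24-fold lower at 8 h and 2.2-fold lower at 1 d. The controls read 8.80, 8.97, 9.14, 8.87 and 9.05. The 8 h arrays read 8.24, 8.31, 7.55, 7.92 and 7.0 and the 1 d arrays 6.76, 8.18, 7.98, 8.07 and 8.14. Every array from 2 h to 2 d lay below every control, as in 19% of all genes at 8 h and 15% at 1 d. The reading of 1 d array 1 lay well below its group. The change was -1.16 ± 0.18 at 8 h (adjusted p = 6.39e-07) and -1.14 ± 0.18 at 1 d (adjusted p = 8.29e-07), or -0.90 at 1 d without arrays 1 and 2.

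At the edges of that window Igfals was close to the threshold. At 2 h the arrays read 8.56, 8.45, 8.24, 8.48 and 8.66, a change of -0.49 ± 0.18 (adjusted p = 0.0361), and their separation from the controls was shared by 14.9% of all genes. This call was lost without control array 2, 3 or 5 or 2 h array 2, 3 or 4 (adjusted p between 0.0532 and 0.0971), and with quantile normalization (adjusted p = 0.142), cyclic loess (adjusted p = 0.214) or the Gapdh covariate (adjusted p = 0.295). At 2 d it was -0.39 (adjusted p = 0.0706) although no array overlapped the controls, as for 10.7% of all genes on that side.

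From 2 h to 8 h Igfals fell by 0.67 (adjusted p = 0.00241), and from 1 d to 2 d it rose by 0.75 (adjusted p = 0.000884). In a fit of only the 1 d and 2 d groups that rise was not called. At 6 d the arrays read 9.26, 9.15, 9.28, 9.25 and 9.30, all above the controls, as in 0.899% of all genes. The 6 d change of 0.28 did not pass (adjusted p = 0.848). At 16 d they ran from 8.66 through a median of 8.84 to 8.92 and overlapped the controls. In the order of the means (8 h, 1 d, 2 h, 2 d, 16 d, control, 4 d, 8 d, 6 d) only the gap between 1 d and 2 h exceeded the within-group SD of 0.29.

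**Figure D3:**
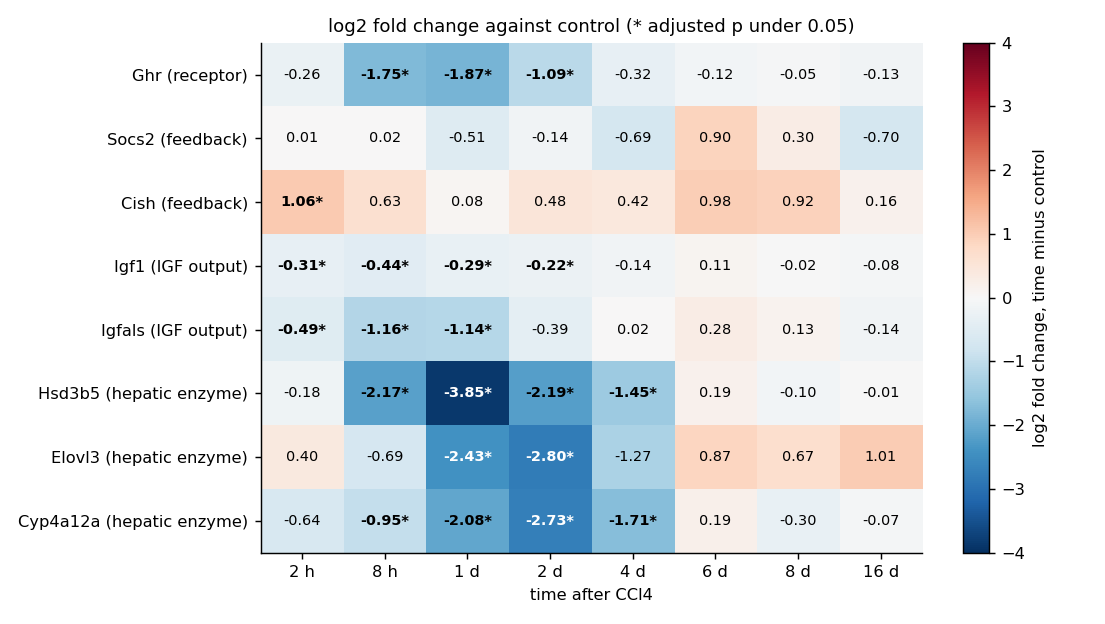
Log2 fold change against control (colour and printed number) of the 8 genes (rows) at the 8 times (columns); an asterisk marks a limma adjusted p under 0.05. The largest fall is that of Hsd3b5 at 1 d (-3.85), the only called rise is that of Cish at 2 h (1.06), and no cell is marked from 6 d on.

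Hsd3b5 encodes a male-specific keto-steroid reductase of mouse liver and showed the largest fall of the 8 genes, 14.4-fold at 1 d. The controls read 11.43, 11.91, 12, 11.48 and 10.23 and the 1 d arrays 5.62, 6.16, 8.29, 9.20 and 8.55. No array at 1 d reached the control range, as in 15% of all genes on that side. The 1 d arrays 1 and 2 lay more than 2 log2 units below the other 3. The change was -3.85 ± 0.42 (adjusted p = 5.5e-10), and -2.73 ± 0.35 without those arrays (adjusted p = 2.25e-08), which is 6.64-fold. These SEs rest on a spread shared by all groups, whereas the SD was 1.58 at 1 d and 0.71 in the controls. Only 0.0453% of genes tested had a change as low at 1 d.

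The fall of Hsd3b5 was already -2.17 ± 0.42 at 8 h (adjusted p = 4.37e-05), when the arrays read 9.48, 10.40, 8.73, 8.75 and 8.85 and 4 of 5 lay below every control. At 2 h it was -0.18 (adjusted p = 0.789). At 2 d the change was -2.19 (adjusted p = 6.51e-05), with all 5 arrays below the controls, as in 10.7% of all genes. At 4 d the arrays read 9.58, 10.89, 10.29, 9.08 and 9.95, and the change was -1.45 ± 0.42 (adjusted p = 0.0259). That call was lost without control array 2, 3 or 4 or 4 d array 1 or 4 (adjusted p between 0.0548 and 0.0944) and with the Gapdh covariate (adjusted p = 0.082).

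The step of Hsd3b5 from 2 h to 8 h was -1.99 (adjusted p = 0.000235). Those from 8 h to 1 d (-1.68, adjusted p = 0.00191) and from 1 d to 2 d (1.66, adjusted p = 0.002) rested on 1 d arrays 1 and 2. Without both arrays they were -0.56 (adjusted p = 0.245) and 0.54 (adjusted p = 0.254). The rise from 4 d to 6 d was 1.64 (adjusted p = 0.00806), after which Hsd3b5 stood at 0.19, -0.10 and -0.01 against control. At 16 d its 6 arrays lay between 11.18 and 11.49 with a median of 11.44, inside the control range. Gaps above the within-group SD of 0.71 in the order of the means lay between 1 d and 2 d, 8 h and 4 d, and 4 d and 2 h.

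Elovl3 encodes an elongase of very long chain fatty acids with a male-biased and daily varying level in liver. Its untreated livers already differed by 3.24 log2 units: 10.55, 11.28, 9.90, 9.80 and 8.04. At 1 d the arrays read 7.05, 5.15, 7.70, 9.45 and 8.11, and at 2 d 8.18, 9.17, 8.08, 5.68 and 4.46. Both groups overlapped the controls, with 3 and 2 arrays below all of them. Elovl3 was 5.37-fold lower at 1 d (-2.43 ± 0.67, adjusted p = 0.0027) and 6.97-fold lower at 2 d (-2.80 ± 0.67, adjusted p = 0.000997). Both folds include a value below the filter's level of 5.55823, on 1 d array 2 (5.15) and 2 d array 5 (4.46).

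Without 1 d arrays 1 and 2 the 1 d change of Elovl3 was -1.50 (adjusted p = 0.0871). With array 2 alone left out it was -1.84 (adjusted p = 0.02). The 2 d call kept its side of the threshold under every alternative run, but without 2 d array 5 the fall was 4.4-fold (-2.14, adjusted p = 0.0102). At 8 h (-0.69, adjusted p = 0.452) and 4 d (-1.27, adjusted p = 0.312) it did not pass. From 6 d to 16 d the means were above control by 0.87, 0.67 and 1.01, without passing (adjusted p = 0.885, 0.814 and 0.402). The 16 d arrays, from 10.38 through 10.94 to 11.52, were far closer together (SD 0.37) than the controls (SD 1.20).

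Of the steps of Elovl3, that from 8 h to 1 d was called (-1.74, adjusted p = 0.0444) but not without 1 d array 1, 2 or 3 or 8 h array 1, 3, 4 or 5 (adjusted p between 0.0563 and 0.194). The rise from 4 d to 6 d was 2.14 (adjusted p = 0.0321) and was lost without 4 d array 1, 4 or 5 or 6 d array 3 or 5 (adjusted p between 0.0669 and 0.126). The within-group SD of 1.13 exceeded that of 99.9% of genes tested. In the order of the means only 1 d and 4 d differed by more than that SD.

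Cyp4a12a encodes a male-biased arachidonic acid hydroxylase and was lowest at 2 d, 6.63-fold below control. Its copy Cyp4a12b is nearly identical, so which of the pair the probe set reads is uncertain. The controls read 10.32, 10.35, 11.10, 10.61 and 10.26, the 1 d arrays 7.82, 8.37, 8.71, 8.95 and 8.39, and the 2 d arrays 7.67, 7.96, 8.42, 7.78 and 7.16. From 8 h to 4 d no array reached the control range, as in 19%, 15%, 10.7% and 3.78% of all genes at these 4 times. The change was -0.95 ± 0.28 at 8 h (adjusted p = 0.0047), -2.08 ± 0.28 at 1 d (adjusted p = 4.43e-08), -2.73 ± 0.28 at 2 d (adjusted p = 1.57e-10) and -1.71 ± 0.28 at 4 d (adjusted p = 2.83e-05). These 4 calls were kept under all alternatives run.

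At 2 h Cyp4a12a was at -0.64 (adjusted p = 0.0868), with 3 of 5 arrays below every control. At 4 d the arrays read 7.88, 9.39, 9.21, 8.92 and 8.66, and at 6 d 10.64, 10.65, 10.91, 10.32 and 11.09, so the groups on either side of this step did not overlap, as in 4.55% of all genes on that side. The rise from 4 d to 6 d was 1.91 ± 0.28 (adjusted p = 4.68e-06), and that from 2 d to 4 d was 1.02 (adjusted p = 0.00466). The fall from 8 h to 1 d was -1.13 (adjusted p = 0.0015), and from 1 d to 2 d the change was -0.65 (adjusted p = 0.0706). At 8 d and 16 d Cyp4a12a was at -0.30 (adjusted p = 0.786) and -0.07 (adjusted p = 0.917). At 16 d the arrays ran from 9.76 through 10.54 to 10.94. Gaps above the within-group SD of 0.47 lay between 2 d and 1 d and between 4 d and 8 h.

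Between neighbouring times 3 members were lower at 8 h than at 2 h (Ghr, Igfals, Hsd3b5) and none higher, beside 15.4% and 20.4% of all genes (35.9% either way). From 8 h to 1 d 3 were lower (the 3 enzymes) and none higher, beside 10.9% and 20.8% of all genes (31.7% either way). From 1 d to 2 d 3 were higher (Ghr, Igfals, Hsd3b5), beside 17.4% of all genes (32.4% either way). From 2 d to 4 d 2 were higher (Ghr, Cyp4a12a), beside 13.4% (31.3% either way). From 4 d to 6 d 4 were higher (Socs2 and the 3 enzymes), beside 3.51% of all genes (10.8% either way). In the last 2 steps no member was called in limma's fit, beside 0.00755% and 0% of all genes. Socs2 and Cish, at -1.0 and -0.76 from 8 d to 16 d, had unadjusted p values under 0.05 (0.024 and 0.0129).

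The lowest means lay at different times, which is given as a description with no test, since genes and times were chosen after the values were seen. On each array the log2 value of Cyp4a12a was subtracted from that of another member, and the mean difference at 2 d was set against that at 1 d. Relative to Cyp4a12a, Ghr stood 1.43 higher at 2 d than at 1 d, Igfals 1.4 and Hsd3b5 2.31. Without 1 d arrays 1 and 2 the values were 1.51, 1.39 and 1.42. At 2 d Cyp4a12a was at its lowest mean, while Ghr, Igfals and Hsd3b5 stood above their 1 d means.

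Arrays of 1 group also differed from each other in a shared way. With group means removed, 5 of the 28 pairs of members correlated over the 46 arrays (permutation of the deviations within groups, two-sided, adjusted over the 28 pairs). The share of such pairs among all genes was not computed, so the count is not read as particular to these members. Ghr and Igfals had the highest Pearson correlation (r = 0.823, adjusted permutation p = 0.00028; Spearman rho = 0.568, adjusted p = 0.0109). Without the 2 arrays farthest out in Ghr the r was 0.665, and without 1 d arrays 1 and 2 0.684 (adjusted permutation p = 0.0281). Ghr and Hsd3b5 passed by rank (rho = 0.585, adjusted permutation p = 0.0109) and not by Pearson r (0.543, adjusted permutation p = 0.108; 0.274 without the 2 farthest arrays). Without 1 d arrays 1 and 2 the r of this pair was 0.668 (adjusted permutation p = 0.00224).

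Socs2 and Cish, the feedback pair, had r = 0.476 (adjusted permutation p = 0.0152; rho = 0.473, adjusted p = 0.0185), and 0.452 without the 2 farthest arrays. Their correlations with Ghr did not pass (r = -0.189 and 0.0463, adjusted permutation p = 0.55 and 0.835). Hsd3b5 and Elovl3 had r = 0.565 (adjusted permutation p = 0.0109; rho = 0.463, adjusted p = 0.0382), and 0.555 without the 2 farthest arrays.

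Igfals with Hsd3b5 (r = 0.555, adjusted permutation p = 0.0273; rho = 0.45, adjusted p = 0.0386; 0.408 without the 2 farthest arrays) no longer passed without 1 d arrays 1 and 2 (adjusted p = 0.0801). Hsd3b5 with Cyp4a12a (r = 0.423, adjusted permutation p = 0.0199; rho = 0.355, adjusted p = 0.0854; 0.33 without the 2 farthest arrays) did not either (adjusted p = 0.0905). The count of pairs was 3 without 1 d array 1 or without 2 d array 5. Igf1 was in none of the 5 pairs. Arrays of a group share a time and may share handling, and no source used here names a batch.

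**Figure D4:**
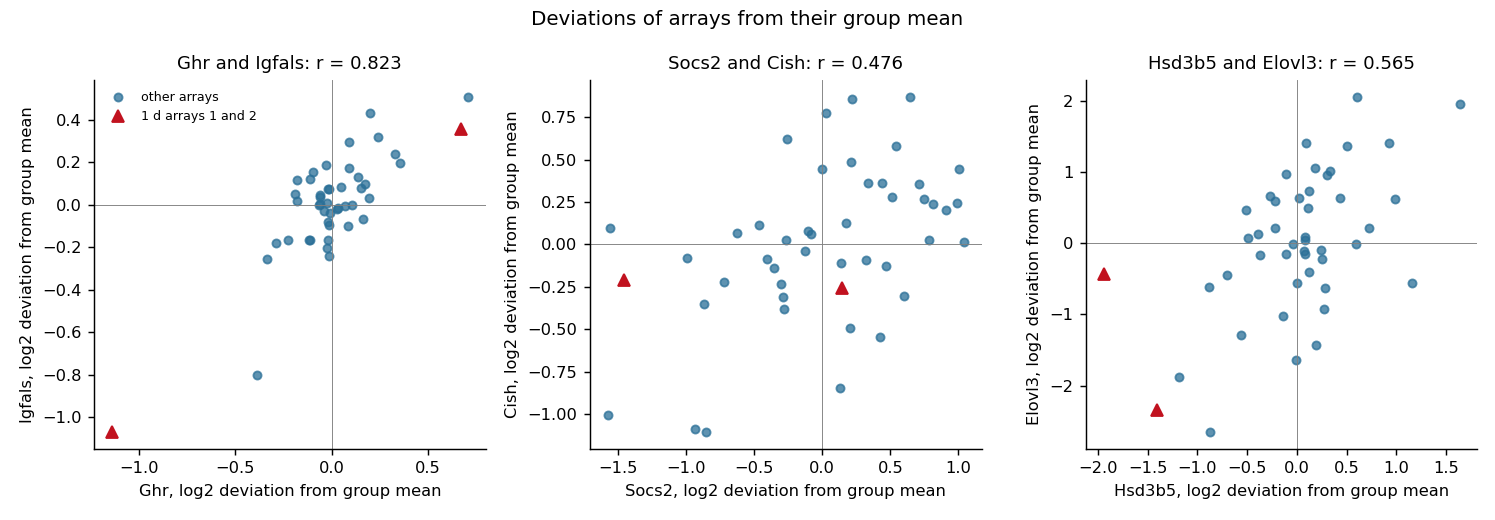
Deviation of each of the 46 arrays from its group mean, in log2 units, for Ghr and Igfals, Socs2 and Cish, and Hsd3b5 and Elovl3; triangles are 1 d arrays 1 and 2. In the Ghr panel the r of 0.823 falls to 0.684 without the triangles, and the Socs2 panel shows arrays low in both genes in several groups (r = 0.476).

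The genes whose values followed each member most closely over the 46 arrays (Pearson r among 12481 candidates, as a description that includes the shared time course) differed between members. For Ghr they were Gphn (0.962), Klkb1 (0.955) and Hsd3b2 (0.953), and Igfals shared Klkb1 (0.940) beside Lactb and Deptor (0.930 each). For Hsd3b5 they were Slco1a1 (0.936), Aox3 (0.919) and Slco1b2 (0.915). Cyp4a12a and Elovl3 shared Ugt3a1 (0.859 and 0.807), with Alas2 (0.857) and Sugct (0.854) for the former and Nkx1-2 (0.825) and Sult2a8 (0.806) for the latter. Igf1 was closest to Ndufa1 (0.824), Ldah (0.823) and Grcc10 (0.805). Cish and Socs2 shared Onecut1 (0.743 and 0.627), beside Arid5b (0.775) and Phlda1 (0.752) for Cish and Slc25a30 (0.661) and Serpina4-ps1 (0.627) for Socs2.

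Among male-biased genes of the growth hormone program, most were called lower at 1 d and 2 d. Of the 30 genes listed, Hsd3b5, Elovl3 and Cyp4a12a included, 22 were tested. At 2 h 3 of the 22 were lower, beside 19.9% of all genes, which is no more than that background. At 8 h 12 were lower, beside 24.2% of all genes, and at 1 d 19, beside 25.1%. At 2 d 17 were lower, beside 18.9%, and at 4 d 10, beside 2.21%. None was called lower later, and none was called higher against control at any time. At 6 d, 8 d and 16 d, 0%, 0.0755% and 1.1% of all genes were called lower, and 0.0227%, 0.068% and 0.415% higher. The list's median log2 fold change was -0.16, -0.70, -1.35, -1.15, -0.46 and 0.19 from 2 h to 6 d, against -0.04 for all genes at 1 d. Keg1, a glycine acyltransferase, was 4.8-fold lower at 8 h (-2.26 ± 0.35, adjusted p = 1.07e-06) and 12.8-fold lower at 1 d (-3.68 ± 0.35, adjusted p = 1.99e-11). Ugt2b38, a glucuronosyltransferase, was 3.57-fold lower at 4 d (-1.84 ± 0.43, adjusted p = 0.0039). These calls kept their side of the threshold under all alternatives run.

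Of 13 tested female-biased genes from a list of 27, 2 were higher and 2 lower at 1 d, beside 25% and 25.1% of all genes, so neither count exceeded the background. At 8 h 2 were higher and 3 lower, beside 17.7% and 24.2%. The 2 higher were Sult1e1 and Trim24 (0.81 ± 0.18, adjusted p = 0.00025), and the count is not read as a result because it holds Sult1e1. Sult1e1, the estrogen sulfotransferase, had a mean of 8.24 at 8 h and between 3.90 and 4.14 in every other group, control included. It passed the filter only through the 5 arrays at 8 h, so it is given as a description with no test or fold. Cyp17a1, a steroid hydroxylase, was lower at 2 d (-0.88 ± 0.21, adjusted p = 0.00111).

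Of 14 tested genes that carry the signal downstream, Ghr included, 4 were higher and 7 lower at 8 h, beside 17.7% and 24.2% of all genes. At 1 d 5 were higher and 4 lower, near the background of 25% and 25.1%, and none was called from 6 d on. Irs1, an adaptor of the insulin and IGF receptors, was at -1.05 ± 0.15 at 2 h (adjusted p = 1.14e-06) and -1.41 ± 0.15 at 8 h (adjusted p = 2.33e-10). Ptpn11, the phosphatase SHP2, was 2.01-fold higher at 1 d (adjusted p = 4.67e-11). The kinase and the factors themselves, named here after their values were seen, moved little: Jak2 by -0.30 at 2 h (adjusted p = 0.0249, and up to 0.311 under alternatives) and 0.32 at 1 d (adjusted p = 0.00686), Stat5a by -0.36 at 8 h (adjusted p = 0.0033) and at 1 d (adjusted p = 0.00288), and Stat5b by -0.31 at 8 h (adjusted p = 0.0413). The Stat5a call at 1 d was lost without 1 d arrays 1 and 2 (-0.16, adjusted p = 0.201).

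Among 13 tested genes that restrain the signal, Socs2 and Cish included, 4 were higher and none lower at 2 h, beside 6.41% and 19.9% of all genes. At 8 h 6 were higher and 1 lower, beside 17.7% and 24.2%, and at 1 d 5 and 1, beside 25% and 25.1%. At 2 d 2 were higher and none lower, beside 21.1% and 18.9%, so the count higher did not exceed the background. The list's median was 0.36 at 8 h and 0.28 at 1 d. Socs3, a suppressor induced by cytokines through STAT3, was 4.91-fold higher at 2 h (2.30 ± 0.44, adjusted p = 0.000131) and 3.10-fold at 8 h (adjusted p = 0.00209), by a probe set whose suffix marks possible cross-hybridisation. With the Gapdh 3′ minus 5′ difference as a covariate Socs3 was 2.99-fold higher at 2 h (adjusted p = 0.0237), and the 8 h call was lost (1.02, adjusted p = 0.098). Socs3 was also called at 1 d (1.62, adjusted p = 0.00204) and 2 d (1.51, adjusted p = 0.00543). Each of these calls was lost under 1 alternative (adjusted p = 0.0842 and 0.0871). From 4 d to 8 d Socs3 was not called, and at 16 d it was called again (1.62 ± 0.42, adjusted p = 0.0419). The 16 d call was lost under 11 of 23 alternatives, among them the fit with the replicate number as a block. It was also lost without control array 1, 4 or 5 or 16 d array 1, 2, 3, 4 or 6 (adjusted p between 0.0516 and 0.122). Ptpn2, a phosphatase of JAK and STAT proteins, was 1.77-fold higher at 8 h (adjusted p = 4.26e-06).

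In the IGF system the binding protein Igfbp1 rose while Igfals and Igf1 fell. Igfbp1, an inhibitory IGF carrier induced by stress and low insulin, was 12.9-fold higher at 2 h (3.69 ± 0.50, adjusted p = 6.45e-07), 10.7-fold at 8 h and 7.30-fold at 1 d (adjusted p = 7.54e-06). Without control array 3 these were 8.34-fold, 6.91-fold and 4.7-fold, all still called. Igfbp2, another carrier, was 2.29-fold lower at 1 d (-1.20 ± 0.16, adjusted p = 2.79e-08) and 1.94-fold lower at 2 d. Insr, the insulin receptor, was at -0.65 at 2 h, -0.72 at 8 h and -0.72 at 2 d (adjusted p = 1.29e-05, 2.85e-07 and 5.49e-07). At 4 d it was at -0.40 (adjusted p = 0.011). Under the alternatives these falls were as small as -0.24, -0.31, -0.35 and -0.18, all still called. Of the 18 genes tested, Igf1 and Igfals included, 6 were lower and 1 higher at 2 h, beside 19.9% and 6.41% of all genes. At 8 h 11 were lower and 1 higher, beside 24.2% and 17.7%, and at 1 d 11 and 2, beside 25.1% and 25%. At 2 d 8 were lower and 3 higher, beside 18.9% and 21.1%, and at 4 d 1 and 3, beside 2.21% and 4.74%.

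**Figure D5:**
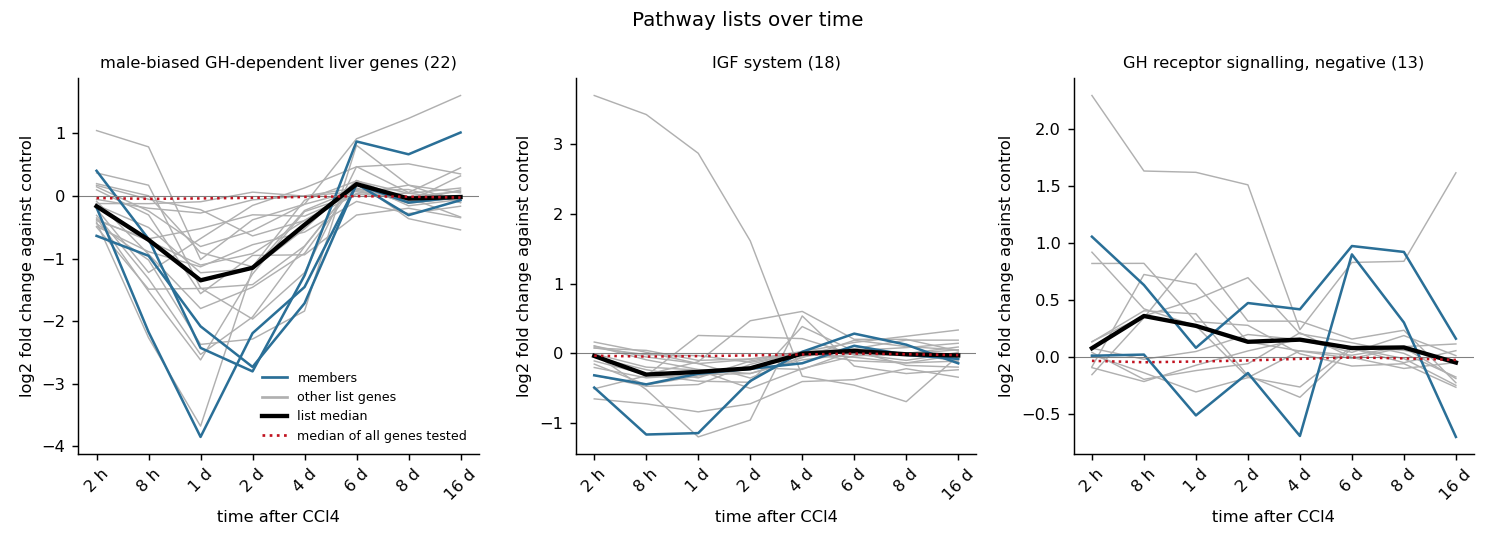
Log2 fold change against control (vertical axis) at the 8 times (horizontal axis) for each tested gene of 3 lists; blue lines are members, the black line is the list's median and the dotted red line the median of all genes tested. The male-biased list's median is at -1.35 at 1 d and 0.19 at 6 d, and the highest line of the IGF panel is Igfbp1 (3.69 at 2 h).

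Among transcription factors tied to growth hormone-regulated liver genes, 19 were tested, of which 11 were lower at 8 h and 11 at 1 d, beside 24.2% and 25.1% of all genes. The counts higher, 3 at 8 h and 2 at 1 d, did not exceed the background of 17.7% and 25%. Bcl6, a male-biased repressor that competes with STAT5 for its sites, was 5.02-fold lower at 8 h (-2.33 ± 0.54, adjusted p = 0.000403) and 4.39-fold lower at 2 d (adjusted p = 0.00155). With the mean of its probe sets it was 2.75-fold and 2.49-fold lower, still called at both times. At 1 d Bcl6 was at -1.30 (adjusted p = 0.0417), a call lost under 11 of 22 alternatives. Cebpb, a factor of the acute phase, was 3.88-fold higher at 2 h (adjusted p = 2.94e-10). A list of 9 lipid genes was drawn up as genes that rise when hepatic growth hormone signalling is lost. That direction was not checked for each gene, so the counts are not read as a sign of such a loss. Of the 9, 1 was higher and 1 lower at 2 h, beside 6.41% and 19.9% of all genes. At 8 h the counts were 3 and 1, beside 17.7% and 24.2%, and at 1 d 3 and 0, beside 25% and 25.1%. Cidec, a lipid droplet protein, had a mean of 6.30 at 8 h and between 3.43 and 4.40 in every other group. Of the 6 arrays on which Cidec exceeded the filter's level, 5 were those at 8 h, so it is given as a description with no test or fold. Cidec is 1 of the 3 lipid genes counted as higher at 8 h, beside Fabp4 and Fgf21, so that count is not read as a result. The fatty acid transporter Cd36 was at -1.05 at 8 h (adjusted p = 7.11e-05) and 0.76 at 2 d (adjusted p = 0.00417, and 0.0502 in a fit of these groups alone). The hepatokine Fgf21, the 1 gene of this list called higher at 2 h, was 13.3-fold higher then (adjusted p = 1.28e-11).

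Markers of some cell types moved at the same times as the members, while others moved later or little. On the linear scale T and NK cell markers had a median sum of 577 in control and 578 at 1 d. The median sum of activated stellate cell markers was 1030 in control, 1003 at 1 d and 2797 at 2 d. Pericentral hepatocyte markers summed to 36723 to 48903 on the linear scale in the controls, 22557 to 26793 at 8 h, 8914 to 16018 at 1 d, 10315 to 21898 at 2 d and 31594 to 37541 at 4 d, and 12 of 15 were lower at 1 d, beside 25.1% of all genes. Periportal markers summed to 42263 to 45983 in control and 18599 to 35335 at 1 d, with 9 of 11 lower, beside the same share. Monocyte-derived macrophage markers rose from 1463 to 1596 in control to 3568 to 9019 at 1 d, with 7 of 12 higher, beside 25% of all genes. RMA values are never at 0, so absence cannot be read from them. Of the 13 pan-hepatocyte markers 1 was higher and 6 were lower at 1 d, beside 25% and 25.1% of all genes, with a median of -0.03. The part of these shifts in the changes of the members was not tested.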

How the data were processed

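The authors deposited log2 values of 46 arrays, made with RMA in oligo 1.52.0 per the submitters' processing notes; RMA corrects background, quantile-normalizes arrays and summarises probes, so changes shared by most genes are removed. Of 45101 probe sets, 34945 named 1 gene. The members and the gene lists were chosen with earlier results of these data known. A gene entered the tests if 5 or more arrays read above 5.55823, the median over every value. One fit of group means over all arrays (limma 3.58.1, R 4.3.3; lmFit and eBayes, 37 residual degrees of freedom) gave the 8 comparisons with control, the 7 neighbouring steps and the F-test, with Benjamini-Hochberg adjustment within a comparison and 0.05 as threshold. Each SE uses a spread shared by all groups, although SDs differed between groups. From each list at most the 2 largest called rises and falls per time are named, and for each member the 3 genes most correlated with it. The fit and the within-group correlations (100000 permutations) were tested on simulated data. Groups follow the sample titles; the controls' treatment label also reads CCl4, whereas the design text calls them untreated. Tests and plots outside limma used Python 3.11.15 with scipy 1.17.1, pandas 2.3.3 and matplotlib 3.10.9. Alternatives covered filters, scaling, probe sets, variance models, a replicate block, a Gapdh covariate and left-out arrays. Precision is limited by the number of arrays.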

Additional observations from a re-analysis of the deposited data

Results flagged for a closer look

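Among 72 groups of 5 or 6 arrays, 4 held an array far from the others by Dixon's criterion, where chance gives about 1 in 20, or 3.6. The first 2 h array read 11.97 for Ghr, and the next highest read 11.80. For Cish the first 8 d array read 7.30, with the next lowest at 8.47, and the first 16 d array read 8.5, with the next highest at 7.67. The first 1 d array read 6.76 for Igfals, with the next lowest at 7.98; it is also the array with the lowest mean correlation with its own group.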

How the results depend on the processing

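Of 36 member calls, 23 kept their side of the threshold under every alternative, and none of 2761 alternative values turned a called direction (62 lost and 40 gained a call, and 2659 stayed on the same side of the threshold, of which 122 uncalled values had the opposite sign). Member counts moved at 2 h (3; 1 with quantile normalization, 1 with cyclic loess, 5 in a fit of the groups compared), 4 d (2; 1 with the Gapdh covariate), 1 d against 8 h (3; 1 with array weights, 1 without 1 d arrays 1 and 2) and 2 d against 1 d (3; 0 in a fit of the groups compared). List genes called at 16 d (2) became 5 after a shift of arrays to a common median, 1 with cyclic loess, 1 with trend and robust variances, 6 with array weights, 0 with the replicate block and 5 without 1 d arrays 1 and 2, and at 4 d (18) 28 with array weights. The causes were not tested.

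Leaving out single arrays gave 2 to 4 members at 2 h, 4 to 5 at 2 d, 1 to 2 at 4 d and 2 to 5 from 4 d to 6 d, 7 to 8 in the F-test and 3 to 6 correlated pairs; list genes ranged from 11 to 16 at 4 d, 0 to 1 at 6 d and 8 d and 0 to 5 at 16 d. Scaling moved the share of rises among called genes: at 2 h 848 higher and 2638 lower became 1153 and 1897 with quantile normalization and 1238 and 1364 with cyclic loess. No scaling moved the median of all genes by over 0.1.

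Whether replicate numbers pair the arrays was only described, with no test. Same-numbered arrays' deviations had a median correlation of 0.00932, against -0.00402 otherwise, and 12 of 46 arrays correlated best with their own number. Correlations over 0.1 were found in 40 of 180 same-numbered pairs and 156 of 760 other pairs. A batch shared by part of the groups was not tested. With the number as a block, Elovl3 from 8 h to 1 d lost its call (adjusted p = 0.0507), Igf1 from 4 d to 6 d gained one (adjusted p = 0.0391), and no other member call changed.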
